A study of Oryza sativa with 6 samples.

Results

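The 10 genes described here cleave sucrose, carry sugars across membranes or control that transport in rice (Oryza sativa). They were chosen by locus identifier, with no threshold on measured values but with earlier results of these data known: the sucrose synthase genes SUS1 (LOC_Os03g28330), SUS2 (LOC_Os06g09450) and SUS3 (LOC_Os07g42490), the cell-wall invertase gene GIF1, also called CIN2 (LOC_Os04g33740), the vacuolar invertase gene INV3 (LOC_Os02g01590), the sucrose transporter genes SUT1 (LOC_Os03g07480) and SUT2 (LOC_Os12g44380), the sugar efflux gene SWEET11 (LOC_Os08g42350), the monosaccharide transporter gene MST8 (LOC_Os01g38670) and the regulator CSA (LOC_Os01g16810). All 10 were found among the 46732 loci of the deposited table. RNA was taken from young panicles 8 to 10 cm long of a near-isogenic pair, NIL-qigl1HD385 and NIL-qIGL1NIP, both given as wild type by genotype, and the study asked which genes differ in expression between versions of a grain length locus. There were 3 libraries of each line. The labels give no treatment or plant age, and the sources used here do not give where the locus lies or which segments each line carries. Whether libraries came from separate plants is not said either, so that p-values here rest on a spread between libraries that may be technical only.

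Sucrose made in leaves reaches the panicle through the phloem. In sink tissue it is split by sucrose synthases in the cytosol, by invertases bound to the cell wall, or by invertases in the vacuole. SUT proteins move sucrose with protons across membranes, SWEET proteins let sugars pass down their gradient, and MST proteins take up the hexoses that invertases release. Sinks of the rice panicle include the elongating hull and rachis and the anthers, whose pollen stores starch.

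Values are RPKM, reads divided by gene model length in kilobases and by library size, so levels may be compared between genes per length. Library totals recovered from the RPKM values lay between 43536754 and 52466060 reads. The 10 genes had between 47 reads (MST8 in NIL-qigl1HD385 replicate 3) and 78291 reads (SUS1 in NIL-qigl1HD385 replicate 2), which gives a counting error of 14.6% and 0.357% of the value. Anther and green tissue markers, lists of 11 and 5 loci, were above 0 in all 6 libraries. These loci were assigned from general knowledge of the rice locus numbering and their identities could not be checked in the files. The summed level of the anther markers ranged widely, with 757, 108 and 562 RPKM in NIL-qigl1HD385 replicates 1, 2 and 3 and 1277, 1243 and 423 RPKM in NIL-qIGL1NIP. NIL-qigl1HD385 replicate 2 was lowest, and NIL-qIGL1NIP replicate 3 was well below the other libraries of its line. The green tissue markers summed to 350 to 479 RPKM in the NIL-qigl1HD385 libraries and 190 to 314 RPKM in those of NIL-qIGL1NIP, without overlap. In whole panicles, fewer cells of a type and less RNA per cell cannot be told apart.

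None of the 10 genes passed the test between the lines. Of 23181 loci with a mean of at least 0.5 RPKM, 170 had an adjusted p under 0.05 in limma on log2(RPKM + 0.5), which is 0.733% of the loci tested. All 10 genes were tested and 0 were called, in either direction. Limma voom on recovered reads, which called 0.548% of all loci, called 0 of the 10 as well. Without adjustment, 2 of the 10 had a p under 0.05 in limma, SUS3 and CSA, both lower in NIL-qigl1HD385, where 17% of all loci tested had such a p and 7.2% had it on the lower side. The same pair came out with voom, where 17.1% of all loci did. The values of the lines did not overlap for 4 of the 10 genes, SUS1 (higher in NIL-qigl1HD385) and SUS3, GIF1 and CSA (lower), where 26.5% of all loci tested did not overlap, 16.2% being higher and 10.3% lower in NIL-qigl1HD385. Between the closest libraries of the lines, 95% intervals from read counting alone overlapped for SUS1, SUS3 and GIF1, and not for CSA. The median log2 difference, NIL-qigl1HD385 minus NIL-qIGL1NIP, was -0.10 over the 10 genes and 0.02 over all loci tested.

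**Figure D1:**
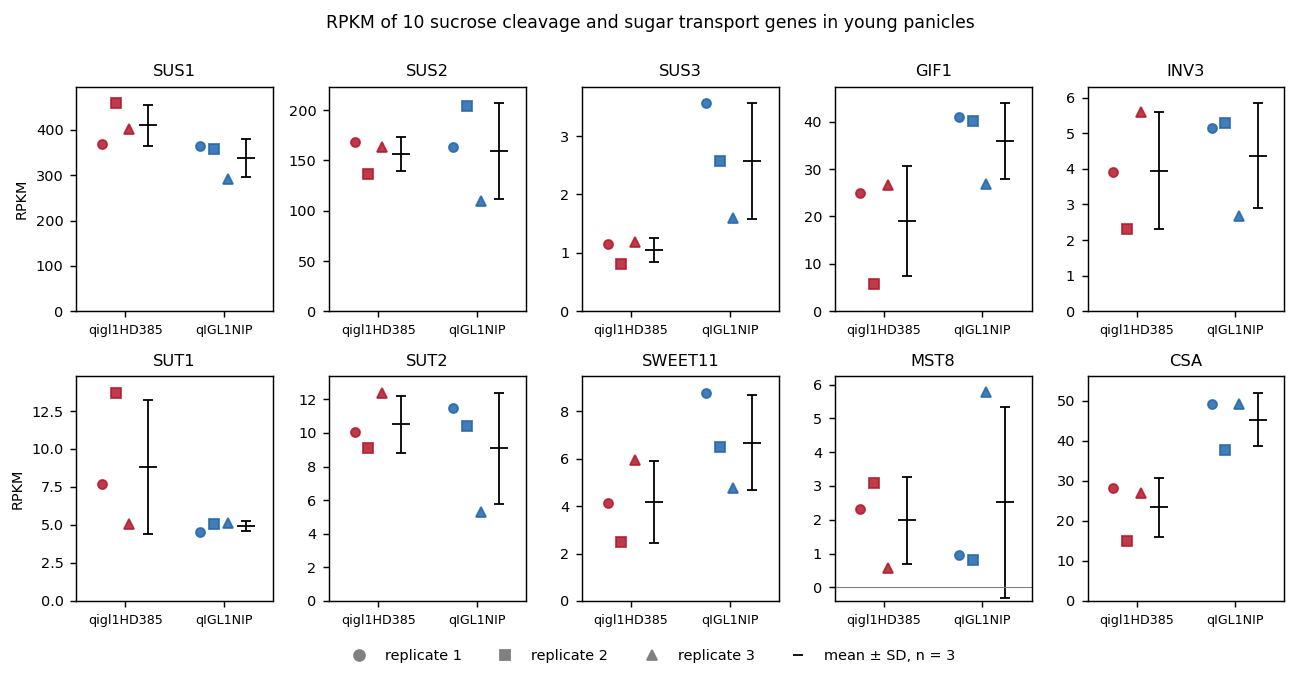
RPKM (linear axis, own scale in each panel) of the 10 genes in the 3 libraries of each line, with the mean and SD (n = 3) beside the points. SUS1, SUS3, GIF1 and CSA are the panels in which the lines do not overlap, for GIF1 by less than counting error. For MST8 the SD of NIL-qIGL1NIP is larger than its mean.

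SUS1 and SUS2 stood far above the other genes in level. The order of mean RPKM over the 6 libraries was SUS1 (374), SUS2 (158), CSA (34.3), GIF1 (27.5), SUT2 (9.79), SUT1 (6.87), SWEET11 (5.43), INV3 (4.16), MST8 (2.25) and SUS3 (1.81). The ranges of SUS1 and SUS2 over the libraries were apart from each other, and that of SUS2 was apart from that of CSA. All further neighbours in the order had overlapping ranges. CSA was above GIF1 in 5 of 6 libraries, and SUT2 above SUT1 in 5 of 6. SWEET11 was above INV3 within each of the 6 libraries, by 1.05 to 1.78 times. SUT1 and SWEET11, and MST8 and SUS3, each changed places in 3 of 6 libraries.

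Sucrose synthase cleaves sucrose reversibly, giving fructose and UDP-glucose, a substrate for cellulose synthesis. SUS1 had 369, 458 and 402 RPKM in NIL-qigl1HD385 replicates 1, 2 and 3 and 365, 358 and 291 RPKM in NIL-qIGL1NIP. It ranked between 82 and 215 among all 46732 loci within a library. The lines were apart by a narrow gap, since the lowest NIL-qigl1HD385 value lay just above the highest of NIL-qIGL1NIP. The means were 410 ± 44.9 and 338 ± 40.9 RPKM (SD, n = 3), and the log2 difference was 0.28 (SE 0.15, 95% interval -0.07 to 0.63, adjusted p = 0.38 in limma). On the fold scale the interval ran from 0.953 to 1.55, so a doubling of SUS1 lay outside it. Without NIL-qigl1HD385 replicate 2 and NIL-qIGL1NIP replicate 3 together, the log2 difference was 0.094. The green tissue markers were higher in the same line: all 5 were tested and had positive fitted differences, with a median of 0.47. Of the 23181 loci tested, 12255 had a positive fitted difference. In limma 1 of the 5 was called, where 0.733% of all loci tested were. An unadjusted p under 0.05 in limma was found for 3 of the 5, where 17% of all loci tested had it. By library these markers summed to 479, 454 and 350 RPKM in NIL-qigl1HD385 replicates 1, 2 and 3 and 190, 305 and 314 RPKM in NIL-qIGL1NIP. The NIL-qigl1HD385 library highest in them was the lowest of its line in SUS1. Within NIL-qIGL1NIP their order was the reverse of that of SUS1. The part of these markers in the SUS1 values was not tested.

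SUS2 did not separate the lines. It had 168, 137 and 164 RPKM in the NIL-qigl1HD385 libraries and 164, 204 and 110 RPKM in those of NIL-qIGL1NIP, where the highest and the lowest of all 6 values both occurred. Its log2 difference came to 0.01 (SE 0.23, 95% interval -0.55 to 0.57, adjusted p = 0.99 in limma). Its sign turned when any of 3 single libraries was left out and under median-ratio scaling.

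SUS3, whose transcript is known from developing rice endosperm, was the least abundant of SUS1, SUS2 and SUS3 by mean RPKM. It had 1.15, 0.811 and 1.19 RPKM in the NIL-qigl1HD385 libraries and 3.56, 2.57 and 1.59 RPKM in those of NIL-qIGL1NIP, from 116 to 553 reads a library. The NIL-qIGL1NIP libraries were all higher, and differed among themselves more than those of NIL-qigl1HD385. The mean of NIL-qIGL1NIP was 2.45 times that of NIL-qigl1HD385, with 2.57 ± 0.985 against 1.05 ± 0.207 RPKM (SD, n = 3). On the log2 scale the difference was -0.95 (SE 0.27, 95% interval -1.59 to -0.31), with a p of 0.011 and an adjusted p of 0.17 in limma. On the scale of voom, which does not add 0.5 RPKM, the difference was -1.26 (adjusted p = 0.17 in limma voom). In every fit that left out 1 library, SUS3 kept its direction, with log2 differences between -1.20 and -0.72. Its lowest value within each line was in the library with the lowest anther marker sum, as for SUS2, GIF1, INV3, SUT2 and SWEET11. Those libraries were the lowest of their line at 52.2% and 54.1% of all loci tested. The part of the anther markers in the SUS3 values was not tested.

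Of the summed RPKM of the 3 sucrose synthases, SUS1 made up 68.6, 76.9 and 70.9% in NIL-qigl1HD385 replicates 1, 2 and 3 and 68.6, 63.3 and 72.3% in NIL-qIGL1NIP. The share of SUS1 overlapped between the lines. SUS1 exceeded SUS2 by 1.75 to 3.34 times. SUS3 made up 0.136 to 0.213% of the sum in NIL-qigl1HD385 and 0.395 to 0.669% in NIL-qIGL1NIP, without overlap. The sum itself was 567 ± 28.7 RPKM for NIL-qigl1HD385 against 500 ± 85.9 RPKM for NIL-qIGL1NIP (SD, n = 3), with NIL-qIGL1NIP replicate 3 lowest at 402 RPKM.

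**Figure D2:**
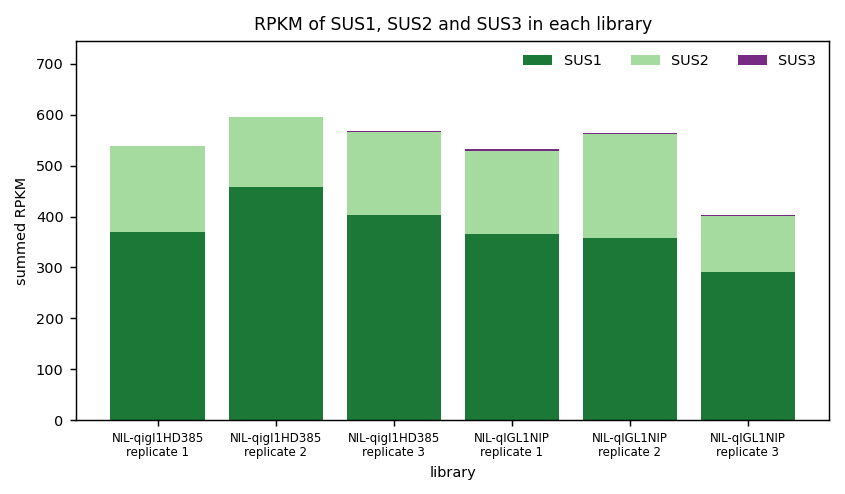
Stacked RPKM of SUS1, SUS2 and SUS3 in each of the 6 libraries, on a linear axis from 0. SUS1 makes up 63.3 to 76.9% of each bar, SUS3 is hardly visible, and NIL-qIGL1NIP replicate 3 has the lowest sum at 402 RPKM.

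The invertases differed in level and in how far libraries spread. GIF1 encodes a cell-wall invertase that splits sucrose arriving outside the cells and is needed for grain filling in rice; it is not the growth regulating factor coactivator of the same abbreviation. Its values were 24.96, 5.72 and 26.6 RPKM in the NIL-qigl1HD385 libraries and 40.9, 40.1 and 26.8 RPKM in those of NIL-qIGL1NIP. The lines were apart only narrowly, as NIL-qigl1HD385 replicate 3 and NIL-qIGL1NIP replicate 3 differed by less than counting error. NIL-qigl1HD385 replicate 2 was far below the rest. The means were 19.1 ± 11.6 and 35.9 ± 7.94 RPKM (SD, n = 3), and the log2 difference was -1.14 (SE 0.57, 95% interval -2.51 to 0.24, adjusted p = 0.37 in limma). Without NIL-qigl1HD385 replicate 2 the log2 difference was -0.45 (adjusted p = 0.46 in limma). The library with the lowest GIF1 level was also the one with the lowest anther marker sum, 108 RPKM. That library was the lowest of its line at 52.2% of all loci tested. The part of the anther markers in the GIF1 difference was not tested.

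INV3, a vacuolar invertase whose product hexoses add to the solute content of the vacuole, overlapped between the lines. It had 3.92, 2.32 and 5.60 RPKM in the NIL-qigl1HD385 libraries and 5.14, 5.30 and 2.68 RPKM in those of NIL-qIGL1NIP. Each line held 1 low library, NIL-qigl1HD385 replicate 2 and NIL-qIGL1NIP replicate 3. Limma gave a log2 difference of -0.15 (SE 0.35, 95% interval -0.996 to 0.70, adjusted p = 0.86 in limma).

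The sucrose transporters SUT1 and SUT2 both had a positive fitted difference, and neither passed. SUT1 is a plasma membrane transporter known from rice phloem and pollen. It had 7.71, 13.7 and 5.06 RPKM in the NIL-qigl1HD385 libraries and 4.57, 5.09 and 5.12 RPKM in those of NIL-qIGL1NIP. The NIL-qIGL1NIP libraries were close together, with an SD of 6.25% of the mean against 50.1% in NIL-qigl1HD385, and NIL-qigl1HD385 replicate 3 lay inside their range. The log2 difference was 0.67 (SE 0.32, 95% interval -0.10 to 1.45, adjusted p = 0.35 in limma), and it was 0.32 without NIL-qigl1HD385 replicate 2.

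SUT2 exports sucrose from the vacuole in rice. It had 10.1, 9.07 and 12.4 RPKM in the NIL-qigl1HD385 libraries and 11.5, 10.4 and 5.32 RPKM in those of NIL-qIGL1NIP. Apart from NIL-qIGL1NIP replicate 3, which was the lowest, the libraries of the lines interleaved. For SUT2 the log2 difference was 0.26 (SE 0.29, 95% interval -0.44 to 0.95, adjusted p = 0.68 in limma) and turned to -0.068 without that library.

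SWEET11 encodes a plasma membrane sucrose exporter needed for pollen development in rice, and is known as a susceptibility gene for bacterial blight. It had 4.13, 2.48 and 5.94 RPKM in the NIL-qigl1HD385 libraries and 8.77, 6.51 and 4.77 RPKM in those of NIL-qIGL1NIP. The lines overlapped through NIL-qigl1HD385 replicate 3 and NIL-qIGL1NIP replicate 3. For SWEET11 the log2 difference was -0.65 (SE 0.33, 95% interval -1.44 to 0.14, adjusted p = 0.37 in limma), and it was -0.36 without NIL-qigl1HD385 replicate 2.

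CSA and MST8 belong to the same pathway of anther sugar supply. CSA (CARBON STARVED ANTHER) is a MYB transcription factor that directs sugar to rice anthers, and MST8, an anther monosaccharide transporter, is a known target of it. CSA had 28.2, 14.9 and 27.0 RPKM in the NIL-qigl1HD385 libraries and 49.1, 37.6 and 49.1 RPKM in those of NIL-qIGL1NIP. All NIL-qIGL1NIP values lay above all NIL-qigl1HD385 values, and NIL-qigl1HD385 replicate 2 was the lowest. The means were 23.3 ± 7.37 and 45.3 ± 6.64 RPKM (SD, n = 3), 1.94 times as much in NIL-qIGL1NIP. The log2 difference was -0.98 (SE 0.26, 95% interval -1.61 to -0.36), with a p of 0.008 and an adjusted p of 0.16 in limma. Leaving out 1 library gave -1.14 to -0.69, and leaving out NIL-qigl1HD385 replicate 2 and NIL-qIGL1NIP replicate 3 together gave -0.63 (adjusted p = 0.20 in limma). Of the 11 anther markers 10 were tested and 0 were called in limma, and their sums overlapped between the lines. All 10 had a negative fitted difference, with a median of -1.05, as had 10926 of the 23181 loci tested. An unadjusted p under 0.05 in limma was found for 4 of them, all lower, where 7.2% of all loci tested had it on the lower side. In NIL-qigl1HD385 replicate 2 both CSA and the anther marker sum were lowest. In NIL-qIGL1NIP replicate 3 that sum was the lowest of its line, 423 RPKM, while CSA was at 49.1 RPKM, level with replicate 1. The part of these markers in the CSA difference was not tested.

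MST8 did not follow CSA from library to library. It had 2.31, 3.09 and 0.573 RPKM in the NIL-qigl1HD385 libraries and 0.961, 0.811 and 5.78 RPKM in those of NIL-qIGL1NIP. The lines overlapped widely, and the highest value in each line was in its library with the lowest anther marker sum (108 RPKM and 423 RPKM). The highest MST8 value was 10.1 times the lowest, far beyond the counting error of 4.67 to 14.6%. For MST8 the log2 difference was -0.05 (SE 0.72, 95% interval -1.78 to 1.68, adjusted p = 0.98 in limma), an interval that runs from 0.290 to 3.20 on the fold scale. The ratio of CSA to MST8 was 12.2, 4.82 and 47.1 in NIL-qigl1HD385 and 51.1, 46.4 and 8.50 in NIL-qIGL1NIP.

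**Figure D3:**
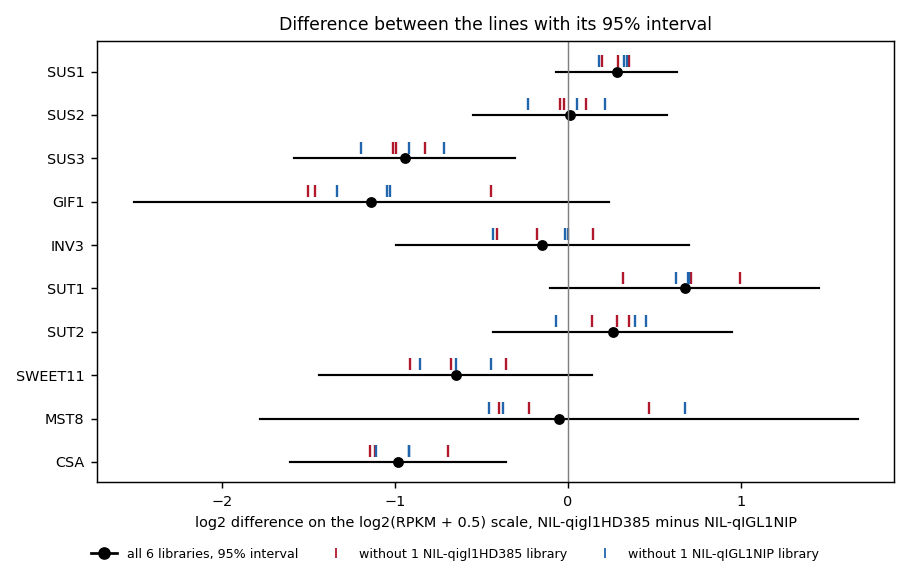
Log2 difference on the log2(RPKM + 0.5) scale, NIL-qigl1HD385 minus NIL-qIGL1NIP, for each gene (points) with its unadjusted 95% interval from limma (lines); ticks are the fits without 1 library. The intervals of SUS3 (-1.59 to -0.31) and CSA (-1.61 to -0.36) lie below 0, and those of the other 8 genes span 0, with MST8 the widest.

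Spread within the lines was large for these genes. The residual SD on the log2 scale was above the median of all loci tested (0.20) for 9 of the 10 genes. SUS1 was the exception, at 0.17. It was 1.104 for MST8, larger than for 98.1% of loci tested, and 0.88 for GIF1, larger than for 97.0%. The median standard error of the difference was 0.31 over the 10 genes and 0.17 over all loci tested.

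Within NIL-qigl1HD385, replicate 2 was the lowest library for 7 of the 10 genes and the highest for the other 3, SUS1, SUT1 and MST8. Within NIL-qIGL1NIP, replicate 3 was the lowest for 7 and the highest for SUT1, MST8 and CSA. SUT1 (5.12 against 5.09 RPKM in replicate 2) and CSA (49.14 against 49.09 RPKM in replicate 1) were highest there by less than counting error. The genes lowest in both of these libraries were 6, namely SUS2, SUS3, GIF1, INV3, SUT2 and SWEET11. Among all loci tested, the same libraries were the lowest of their line at 52.2% and 54.1% of loci and the highest at 27.0% and 28.5%. By the distance between values divided by their mean over the 6 libraries, the nearest pairs were SUS2 with SUT2 (distance 0.388) and SWEET11 with GIF1 (0.437). MST8 was farthest from any other gene, at 2.01 from CSA. All 10 genes share these 6 libraries and their scaling, so the distances are a description.

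**Figure D4:**
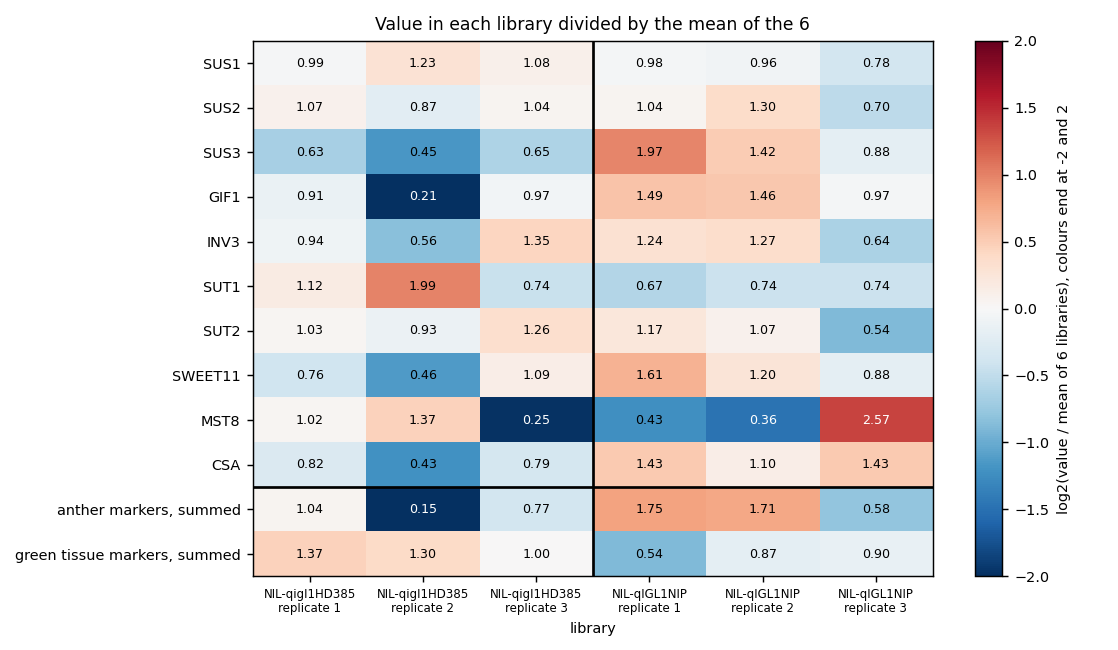
RPKM of each gene, and the summed RPKM of the anther and green tissue markers, in each library divided by the mean of the 6 libraries (numbers in the cells; colours on a log2 scale that ends at -2 and 2). GIF1 (0.21), CSA (0.43), SUS3 (0.45), SWEET11 (0.46), INV3 (0.56) and the anther markers (0.15) are lowest in NIL-qigl1HD385 replicate 2. In NIL-qIGL1NIP replicate 3 the anther markers are at 0.58, CSA is at 1.43 and MST8 is highest (2.57).

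The chromosome surroundings of the 10 genes held few loci that differed between the lines. Up to 25 tested loci on either side of each gene, in the order of the locus numbers, gave 476 neighbours, of which 5 were called, or 1.05% against 0.733% of all loci tested. SUT2 had 26 of these neighbours and each other gene 50. SUS1 and SUS2 had 2 called neighbours each, or 4%, and CSA had 1, or 2%. The other 7 genes had 0 called neighbours in limma.

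Further loci of the same families gave no call either. A list of 44 such loci, assigned from general knowledge of the rice locus numbering and not annotated in the files, was counted without naming single loci. Of these, 43 were in the table and 28 passed the filter on low values, 16 with a positive and 12 with a negative fitted difference. In limma 0 were called, 3 had an unadjusted p under 0.05 and 7 had lines that did not overlap (5 higher and 2 lower in NIL-qigl1HD385), against 17% and 26.5% of all loci tested. Their median log2 difference was 0.04. The smallest adjusted p, 0.14 in limma, belonged to a sucrose synthase locus with 23.6, 31.3 and 22.1 RPKM in the NIL-qigl1HD385 libraries and 15.4, 16.9 and 17.2 RPKM in those of NIL-qIGL1NIP. It was higher in NIL-qigl1HD385 in all libraries, with a log2 difference of 0.61 (SE 0.15). Of the 7 cell-wall invertase loci of this list, 4 were tested and 0 called in limma. All 4 had positive fitted log2 differences, 0.18 to 0.62, where that of GIF1 was negative. A positive difference was found at 12255 of the 23181 loci tested. The locus at 0.62 (SE 0.91) had 4.89 RPKM in NIL-qigl1HD385 replicate 1 and 0.074 to 1.12 RPKM in the other libraries. Of the 19 SWEET loci in the table, 10 were tested and 0 called, with log2 differences between -1.13 and 1.38. The upper end, 1.38 (SE 0.58), belonged to a locus with 3.05 RPKM in NIL-qigl1HD385 replicate 2 and 0 to 0.392 RPKM in the other libraries. The lower end, -1.13 (SE 0.47), belonged to a locus with 11.3, 4.31 and 17.6 RPKM in the NIL-qigl1HD385 libraries. In those of NIL-qIGL1NIP it had 26.1, 17.7 and 21.6 RPKM, apart by a narrow gap. Of the 7 monosaccharide transporter loci, 6 were tested and 0 called in limma, with log2 differences between -1.31 and 0.17, 3 positive and 3 negative.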

How the data were processed

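The deposited table holds RPKM, which the authors computed for each locus in each library; libraries were stranded mRNA libraries, per the labels' protocols. The submitters' processing notes name Trimmomatic 0.36, featureCounts, Subread 1.5.1 and edgeR 3.12.1 without roles; for aligner, build and strand setting, nothing is given in the sources used here. If strand was not used, overlapping and antisense loci share reads, and reads of near-identical family members can be split or lost.

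Library totals, gene lengths and reads were recovered from the RPKM values with Python 3.11.15: within 0.003 of a whole number, 100% of the values above 0 were whole reads. Counting errors cover counting only. log2(RPKM + 0.5) was tested with limma 3.58.1 in R 4.3.3 (eBayes with a variance trend, two-sided) where mean RPKM reached 0.5, with Benjamini-Hochberg adjustment over all 23181 and calls at 0.05. Fold changes on this scale understate low genes. The members and lists were chosen with earlier results of these data known, though no measured value entered the rule, and all 10 members were named. Leaving out a pair of libraries and voom were added after the data had been seen. Gene names come with the choice of members: the RefSeq table (assembly ASM3414082v1) holds 7 of the names, on the same chromosome as the identifier (SUT2 there names genes on chromosomes 2 and 12), and matched 0 identifiers. No sequences are shown.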

Additional observations from a re-analysis of the deposited data

How the results depend on the processing

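No alternative called any of the 10 genes: 0 were called under both pseudocounts (0.1 and 1), no filter, a stricter filter at a mean RPKM of 2 (SUS3 then falls out), median-ratio scaling, quantile normalization, no variance trend, robust variance, the replicate block, each library left out, 2 libraries left out, and voom; the smallest adjusted p was 0.077 (limma), for GIF1 without NIL-qigl1HD385 replicate 2 and NIL-qIGL1NIP replicate 3. The direction held in 157 of 169 refits of single genes. It turned for SUS2 under median-ratio scaling (-0.021) and without those 2 libraries (-0.14), and for MST8 without them (0.33) and in voom (0.024). Leaving out 1 library at a time gave log2 differences of -0.23 to 0.21 for SUS2, -0.43 to 0.14 for INV3, -0.068 to 0.45 for SUT2 and -0.45 to 0.68 for MST8. Such fits gave 2 genes, SUS3 and CSA, an unadjusted p under 0.05 in limma, where 11.8 to 15.5% of all loci had it. The exception was the fit without NIL-qigl1HD385 replicate 3, with 5 (SUS3, GIF1, SUT1, SWEET11 and CSA), where 13.8% of all loci did. With the stricter filter 1 of the 9 genes tested, CSA, had it, where 18.2% of all loci did. The 170 loci called overall became 94 with that filter, 93 without the 2 libraries, 84 to 112 with 1 library left out and 46 with the replicate block. Nothing in the labels pairs libraries by number: same-numbered deviations correlated across loci at -0.28, -0.25 and -0.41, and of the 6 libraries 0 had the same-numbered one as its closest. With 3 libraries a line and the spread seen, MST8 and GIF1 have the widest intervals; the causes of these shifts were not tested.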
